A study of Mus musculus with 6 samples.

Results

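The 10 genes Lyve1, Folr2, Cd163, Stab1, Msr1, Marco, Siglec1, Cbr2, Fcna and Colec12 mark tissue-resident macrophages and encode scavenger receptors and related proteins. They were taken by name from the 22180 genes that a probe set with a single gene symbol measured, and all 10 were found, each on 1 probe set. The samples were dermal macrophages sorted from digested ear skin of C57Bl/6 mice aged 2 weeks. In every mouse the gene for green fluorescent protein replaced a single copy of Cx3cr1 (genotype Cx3cr1+/gfp), so that the cells of all groups kept 1 intact copy of the fractalkine receptor gene. The 3 groups were CX3CR1high, CX3CR1int (intermediate) and CX3CR1low cells, with 2 samples each, 4 mice pooled per sample and 2 independent litters. The limits of the sort gates were not given in the sources used here. A comparison therefore describes sorted populations of young skin, not the loss of the receptor.

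Scavenger receptors are surface proteins of macrophages that bind a wide range of altered or foreign material, such as oxidised lipoproteins, microbes and cell debris, and carry it to the lysosome. Macrophages that live for long periods in tissues, often along blood vessels, carry a typical set of such receptors. The hyaluronan receptor LYVE1, the folate receptor FOLR2 and the hemoglobin scavenger CD163 are the best known, and skin holds many macrophages of this kind. Several of these genes are also used by other cells, since Lyve1 and Stab1 are active in lymphatic endothelium.

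Expression was read as a log2 signal, the logarithm to base 2 of the brightness of a probe set after RMA, so that a step of 1 is a doubling. Correlations of the 6 arrays across genes, which are no independent replicates, ranged from 0.974 to 0.977 for arrays of the same subset and from 0.96 to 0.978 for arrays of different ones. Differences were tested with limma in a fit to 15529 genes, and a gene was called at an adjusted p under 0.05. All 10 genes entered that fit and lay above the dim level of 4.335 in every sample, the closest being Marco with 5.31 in its lowest sample. The 2 arrays per subset limit which differences can be called. In simulated data 43.3% of changes of 1 log2 unit and 95.5% of changes of 2 units were recovered between CX3CR1high and CX3CR1low samples. The simulation placed changes of 1 to 3 units in the CX3CR1high samples, with noise that was independent between samples. It gave 167 calls, against 62 in the data, so that these shares may overstate what the data can recover.

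Macrophage identity was present throughout. Adgre1, which encodes a surface antigen typical of mouse macrophages, was at 10.63 and 10.85 in CX3CR1high, 10.93 and 10.95 in CX3CR1int, and 10.89 and 10.75 in CX3CR1low samples. None of 9 measured macrophage markers was called in any comparison, and Csf1r, the receptor gene for the macrophage growth factor, differed by -0.14 between CX3CR1high and CX3CR1low cells. All 9 were lower in CX3CR1high than in CX3CR1low cells, with a median of -0.14, beside 48.6% of all genes. Against CX3CR1int cells 7 of the 9 were lower, with a median of -0.125, beside 49.5% of all genes. Cx3cr1 itself was at 10.55 and 9.51 in CX3CR1high, 7.05 and 6.84 in CX3CR1int, and 5.87 and 7.01 in CX3CR1low samples. The array thus placed the CX3CR1high samples clearly above both other subsets, while the CX3CR1int samples overlapped the CX3CR1low ones.

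The promoters of Cd163, Folr2, Cbr2 and Fcna are shown because the signals of these genes lay lower in both CX3CR1high samples than in any sample of the other subsets, and that of Stab1 because its signal did not. Each runs 5′ to 3′ on the gene's strand from 250 bases before a RefSeq start to 50 bases after it in build GRCm38.p6, and Folr2 has 2 starts. Capitals mark GAGGAA, a core that the macrophage factor PU.1 can bind, and TGCTGA, a core that MAF factors can bind, on either strand.
Cd163, chr6:124304401-124304700, plus strand: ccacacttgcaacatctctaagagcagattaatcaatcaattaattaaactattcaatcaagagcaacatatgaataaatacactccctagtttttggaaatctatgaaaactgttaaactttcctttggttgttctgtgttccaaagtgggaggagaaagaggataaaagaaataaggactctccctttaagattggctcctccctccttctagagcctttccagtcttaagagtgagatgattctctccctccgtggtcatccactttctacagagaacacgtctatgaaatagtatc
Folr2, start 1, chr7:101857141-101857440, minus strand: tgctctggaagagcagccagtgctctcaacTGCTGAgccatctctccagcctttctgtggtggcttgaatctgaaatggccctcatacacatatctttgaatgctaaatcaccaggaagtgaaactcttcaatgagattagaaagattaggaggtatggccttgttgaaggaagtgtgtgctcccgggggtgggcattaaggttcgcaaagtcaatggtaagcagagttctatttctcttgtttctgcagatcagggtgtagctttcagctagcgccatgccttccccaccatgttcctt
Folr2, start 2, chr7:101845282-101845581, minus strand: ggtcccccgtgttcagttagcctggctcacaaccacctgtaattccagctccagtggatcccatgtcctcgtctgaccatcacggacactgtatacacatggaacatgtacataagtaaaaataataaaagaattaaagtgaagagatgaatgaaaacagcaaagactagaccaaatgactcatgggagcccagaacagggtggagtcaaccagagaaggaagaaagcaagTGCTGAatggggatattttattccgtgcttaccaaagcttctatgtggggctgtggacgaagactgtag
Cbr2, chr11:120731972-120732271, minus strand: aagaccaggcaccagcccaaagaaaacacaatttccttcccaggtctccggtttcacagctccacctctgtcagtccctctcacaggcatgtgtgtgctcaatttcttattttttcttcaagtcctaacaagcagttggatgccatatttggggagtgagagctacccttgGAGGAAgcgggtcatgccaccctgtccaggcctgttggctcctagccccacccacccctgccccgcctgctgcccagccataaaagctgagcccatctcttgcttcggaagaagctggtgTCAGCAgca
Fcna, chr2:25627925-25628224, minus strand: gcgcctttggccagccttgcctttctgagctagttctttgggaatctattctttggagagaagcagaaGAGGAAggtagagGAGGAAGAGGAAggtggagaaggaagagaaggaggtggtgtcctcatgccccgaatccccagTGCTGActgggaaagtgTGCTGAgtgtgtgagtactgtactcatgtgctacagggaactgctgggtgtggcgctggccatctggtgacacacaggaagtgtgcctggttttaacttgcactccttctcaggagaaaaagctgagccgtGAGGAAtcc
Stab1, chr14:31168592-31168891, minus strand: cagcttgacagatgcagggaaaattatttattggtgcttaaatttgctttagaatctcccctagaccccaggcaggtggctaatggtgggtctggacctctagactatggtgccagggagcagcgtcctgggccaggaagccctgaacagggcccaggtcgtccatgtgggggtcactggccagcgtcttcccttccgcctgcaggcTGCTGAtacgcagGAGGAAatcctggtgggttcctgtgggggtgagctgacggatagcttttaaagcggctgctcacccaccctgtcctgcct

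The Cd163 window held neither word. Each Folr2 window held 1 TGCTGA, Cbr2 held 1 of each word (TGCTGA on the opposite strand), Stab1 held 1 of each, and Fcna held 4 GAGGAA and 2 TGCTGA. Of 32851 promoter windows of the same length, 28.3% held GAGGAA and 19.5% held TGCTGA, so that such matches are common. They are matches of letters only, and binding was not measured. RefSeq windows were matched for 6 of the 10 genes.

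Set against CX3CR1low cells, CX3CR1high cells show whether macrophages with the most CX3CR1 carry less or more of the resident scavenger set. None of the 10 genes passed the test, beside 0.399% of all genes called. Cd163 and Folr2 had the largest differences, both lower in CX3CR1high cells by less than 2-fold. Lyve1, Stab1 and Msr1 differed little. At an unadjusted p under 0.05 limma counted 4 of the 10, Cd163, Folr2, Cbr2 and Fcna, all lower, beside 9.65% of all genes in either direction. In these 4 genes both CX3CR1high samples lay below both CX3CR1low samples, which 18.4% of all genes did, and in none of the 10 did both lie above, as 19.8% of all genes did. The median difference of the 10 was -0.43, beside 0.005 over all genes. The genes were chosen with earlier results of these data known, so that these counts describe the 10 and are no test of them.

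Cd163 encodes the receptor that takes up complexes of haptoglobin and hemoglobin. Its log2 signal was 9.79 and 10.28 in CX3CR1high samples, 10.79 and 10.92 in CX3CR1int samples, and 10.94 in both CX3CR1low samples. The CX3CR1high samples thus lay below all 4 others, and these 4 lay close together. Cd163 was 1.87-fold lower in CX3CR1high than in CX3CR1low cells (log2 difference -0.91 ± 0.17, SE, n = 2 per subset, limma, adjusted p = 0.0829), with a 95% interval of -1.29 to -0.52. With the replicate number as a term in the model, called the replicate block here, the same difference was called (limma, adjusted p = 0.0305), beside 0.992% of all genes. Without the CX3CR1high replicate 1 it was -0.66 and without the CX3CR1high replicate 2 it was -1.15, and neither was called (limma, adjusted p = 0.350 and 0.0993). A lower signal in a sorted population can come from fewer cells with the transcript or from less of it per cell, and the array cannot tell these apart.

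Folr2 encodes folate receptor beta, a receptor anchored to the membrane by a lipid. It was at 9.87 and 10.14 in CX3CR1high samples, against 10.43 and 10.88 in CX3CR1int and 10.90 and 10.68 in CX3CR1low samples. Here too the CX3CR1high samples were the lowest, and the other subsets overlapped. Folr2 was 1.72-fold lower in CX3CR1high than in CX3CR1low cells (-0.79 ± 0.18, SE, limma, adjusted p = 0.173, 95% interval -1.20 to -0.37). It was not called with the replicate block either (limma, adjusted p = 0.0891).

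Cbr2 encodes carbonyl reductase 2, an enzyme that serves as a marker of resident macrophages in mouse tissues. Its signal was 11.31 and 11.54 in CX3CR1high samples, against 11.75 and 11.86 in CX3CR1int and 11.82 and 11.68 in CX3CR1low samples. The CX3CR1high samples were the lowest here too, by a smaller step, and the other subsets overlapped. Its difference between CX3CR1high and CX3CR1low cells was -0.33 ± 0.12 (SE, limma, adjusted p = 0.433).

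Fcna encodes ficolin A, a secreted lectin that can start the lectin pathway of complement. It was at 6.99 and 7.33 in CX3CR1high samples, against 7.50 and 7.67 in CX3CR1int and 7.95 and 7.45 in CX3CR1low samples. The CX3CR1high samples were again the lowest, and the CX3CR1int samples fell between the CX3CR1low ones. The difference between CX3CR1high and CX3CR1low cells was -0.54 ± 0.22 (SE, limma, adjusted p = 0.488).

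**Figure D1:**
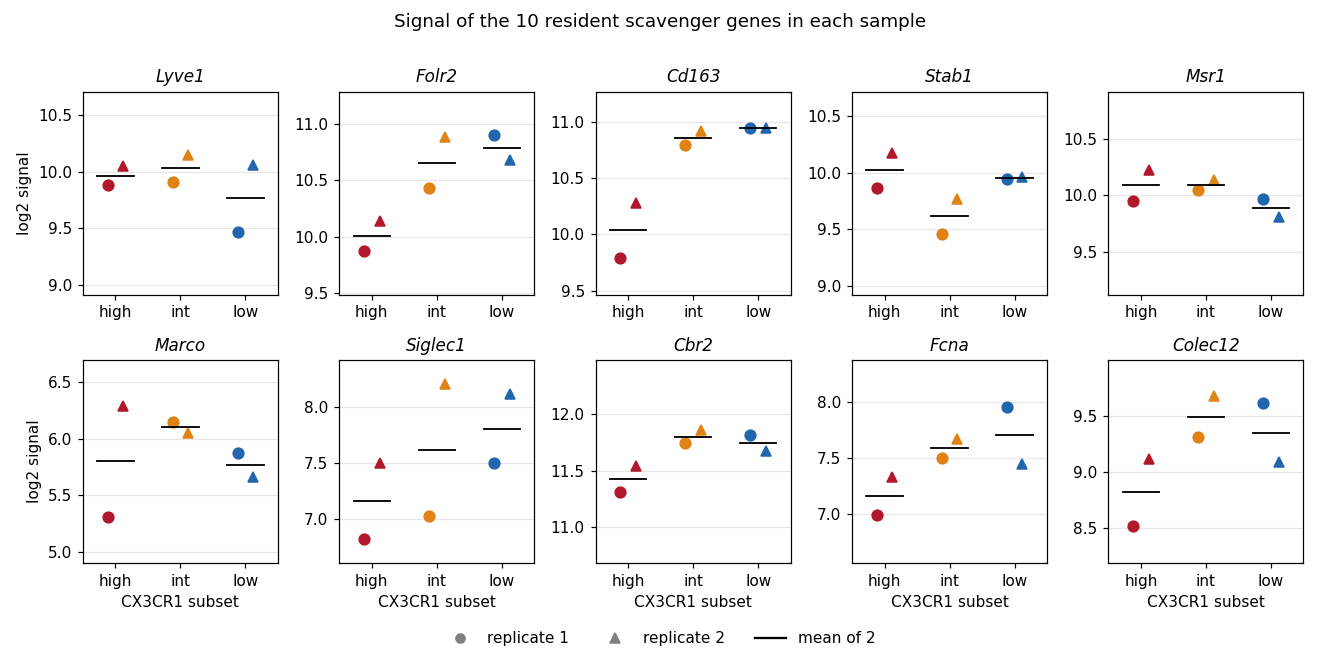
Log2 signal (vertical axes, each spanning the same range of log2 units) of the 10 genes in the CX3CR1high, CX3CR1int and CX3CR1low samples. Each point is a sample, circles are replicates 1, triangles are replicates 2, and lines are means of 2 samples. Cd163, Folr2, Cbr2 and Fcna have both CX3CR1high samples below all other samples, while Lyve1 has all samples between 9.47 and 10.15.

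Lyve1, the hyaluronan receptor that gives these macrophages their name, was at 9.88 and 10.05 in CX3CR1high samples, against 9.91 and 10.15 in CX3CR1int and 9.47 and 10.06 in CX3CR1low samples. All 3 subsets overlapped, and the widest gap within a subset was that of the CX3CR1low samples, 0.59. The difference between CX3CR1high and CX3CR1low cells was 0.20 ± 0.21 (SE, limma, adjusted p = 0.832), and its 95% interval ran from -0.27 to 0.67. Without the CX3CR1low replicate 1 it turned to -0.10 (limma, adjusted p = 0.940).

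Within an array the signals of Cd163 and Folr2 can be set against that of Lyve1, since a change of the difference across arrays shows unequal change. Cd163 minus Lyve1 was -0.09 and 0.23 in CX3CR1high, 0.88 and 0.77 in CX3CR1int, and 1.47 and 0.88 in CX3CR1low samples. Folr2 minus Lyve1 was -0.01 and 0.09 in CX3CR1high, 0.52 and 0.73 in CX3CR1int, and 1.43 and 0.62 in CX3CR1low samples. Both differences were lowest in the CX3CR1high samples without overlap. These differences were not tested.

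The scavenger receptors of the stabilin and class A families gave mixed patterns. Stab1 encodes stabilin-1, which takes up altered lipoproteins and the matrix protein SPARC. It was at 9.87 and 10.18 in CX3CR1high, 9.46 and 9.77 in CX3CR1int, and 9.95 and 9.96 in CX3CR1low samples. The CX3CR1int samples were therefore the lowest, unlike those of Cd163 and Folr2. The difference between CX3CR1high and CX3CR1low cells was 0.07 ± 0.17 (SE, limma, adjusted p = 0.942).

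Msr1 encodes the class A scavenger receptor, which binds modified lipoproteins. It was at 9.95 and 10.23 in CX3CR1high, 10.05 and 10.14 in CX3CR1int, and 9.97 and 9.81 in CX3CR1low samples. The CX3CR1high samples overlapped both other subsets. Msr1 differed by 0.20 ± 0.15 between CX3CR1high and CX3CR1low cells (SE, limma, adjusted p = 0.750, 95% interval -0.15 to 0.55).

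Marco, a receptor of the same class for bacteria and particles, was at 5.31 and 6.29 in CX3CR1high, 6.15 and 6.05 in CX3CR1int, and 5.87 and 5.66 in CX3CR1low samples. The 2 CX3CR1high samples were its lowest and its highest. Its difference between CX3CR1high and CX3CR1low cells, 0.04 ± 0.29 (SE, limma, adjusted p = 0.983), was -0.46 without the CX3CR1high replicate 2 (limma, adjusted p = 0.572).

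Colec12, a scavenger receptor with a collagen-like stalk and a C-type lectin domain, was at 8.52 and 9.12 in CX3CR1high, 9.31 and 9.67 in CX3CR1int, and 9.61 and 9.09 in CX3CR1low samples. The CX3CR1high samples lay below both CX3CR1int samples but overlapped the CX3CR1low ones. The difference between CX3CR1high and CX3CR1low cells was -0.53 ± 0.25 (SE, limma, adjusted p = 0.556).

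Siglec1 encodes sialoadhesin, or CD169, which binds sialic acids on cells and viruses. It was at 6.83 and 7.50 in CX3CR1high, 7.03 and 8.20 in CX3CR1int, and 7.50 and 8.11 in CX3CR1low samples. Replicate 2 was higher than replicate 1 in each subset, by 0.67 in CX3CR1high, 1.17 in CX3CR1int and 0.61 in CX3CR1low samples. The difference between CX3CR1high and CX3CR1low cells was -0.64 ± 0.39 (SE, limma, adjusted p = 0.671). With the replicate block its standard error fell to 0.20 and it was still not called (limma, adjusted p = 0.245). Replicates 1 and 2 differed in sex composition, with the female transcript Xist at 7.39 to 7.97 in replicates 1 and 10.99 to 11.39 in replicates 2. The part of sex or litter in the signal of Siglec1 was not tested.

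**Figure D2:**
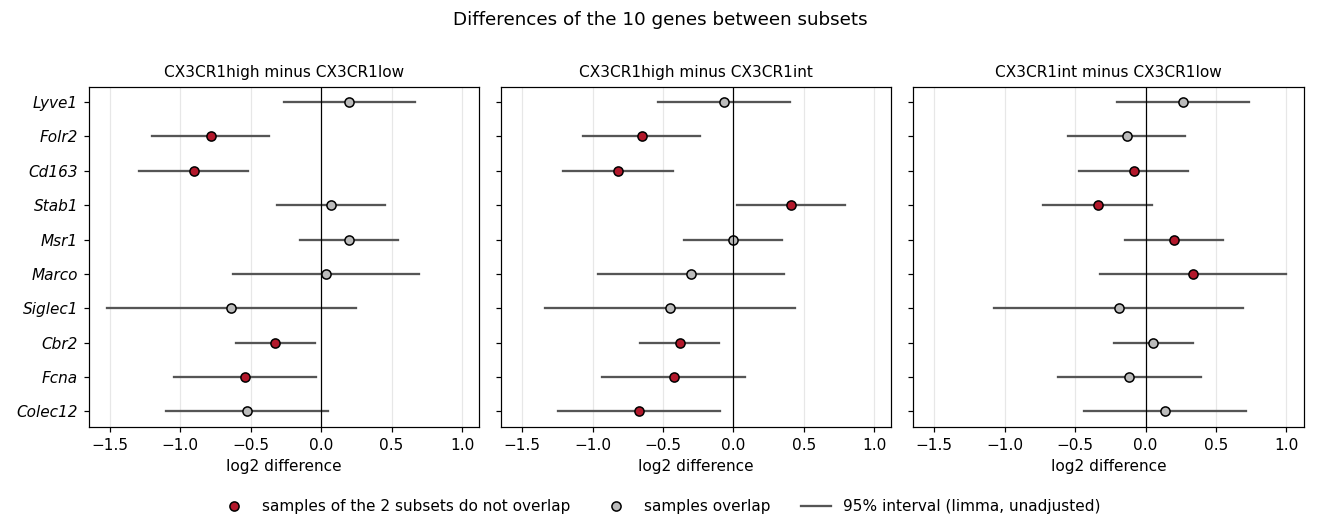
Log2 differences (horizontal axes) of the 10 genes (rows) in the 3 comparisons, with points for the difference of means, bars for the unadjusted 95% interval of limma, and red points where the samples of the 2 subsets do not overlap. Cd163 and Folr2 lie lowest in both comparisons of CX3CR1high cells, save that Colec12 (-0.67) lies just below Folr2 (-0.65) against CX3CR1int, and all 10 intervals between CX3CR1int and CX3CR1low cells include 0.

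In the comparison of CX3CR1high with CX3CR1int cells, again none of the 10 genes was called, beside 0.142% of all genes. This comparison shares the CX3CR1high samples with the one above. At an unadjusted p under 0.05 limma counted 5 of the 10, with Cd163, Folr2, Cbr2 and Colec12 lower and Stab1 higher, beside 7.89% of all genes in either direction. Both CX3CR1high samples lay below both CX3CR1int samples in 5 of the 10, those 4 lower genes and Fcna, as they did in 18.5% of all genes. They lay above in Stab1 alone of the 10, as they did in 18.3% of all genes. The median difference was -0.40, beside 0 over all genes.

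Cd163 was 1.77-fold lower in CX3CR1high than in CX3CR1int cells (-0.82 ± 0.17, SE, limma, adjusted p = 0.188). With the replicate block it missed the threshold (limma, adjusted p = 0.0771), where 0.303% of all genes were called. Folr2 was lower by 0.65 ± 0.18 (SE) and Colec12 by 0.67 ± 0.25 (SE), with limma adjusted p-values of 0.381 and 0.542. Cbr2 differed by -0.38 ± 0.12 and Fcna by -0.43 ± 0.22 (SE), and Siglec1 by -0.45 ± 0.39. Stab1 was 0.41 ± 0.17 higher in CX3CR1high cells (SE, limma, adjusted p = 0.584). Lyve1 (-0.07 ± 0.21), Msr1 (-0.01 ± 0.15) and Marco (-0.30 ± 0.29) had intervals on both sides of 0.

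The comparison of CX3CR1int with CX3CR1low cells gave no call among the 10, at an adjusted p of 0.996 for each in limma, and only 0.00644% of all genes, a single one, were called. None of the 10 had an unadjusted p under 0.05 in limma, beside 4.89% of all genes. With the replicate block no gene at all was called, 0%. The differences of the 10 ran from -0.34 (Stab1) to 0.34 (Marco), with 5 above and 5 below 0. Samples did not overlap in 4 genes, with Cd163 and Stab1 lower in CX3CR1int cells, as 14.8% of all genes were, and Msr1 and Marco higher, as 16.6% were. For Cd163 that gap was narrow, between 10.92 in the CX3CR1int replicate 2 and 10.94 in both CX3CR1low samples. The 95% interval that reached farthest from 0 was that of Siglec1 (-1.07 to 0.69), and those of the other 9 genes stayed within 1 log2 unit, a 2-fold change. In a test for any difference among the 3 subsets none of the 10 was called, with Cd163 having the lowest adjusted p (limma, 0.138), beside 0.187% of all genes called.

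Among themselves the 10 genes differed in how closely they moved with Cd163. Over the 6 samples its correlation was highest with Cbr2 (0.952), Folr2 (0.943), Fcna (0.86) and Colec12 (0.852). It was 0.673 with Siglec1 and 0.42 with Marco. It was -0.075 with Lyve1, -0.156 with Msr1 and -0.265 with Stab1. These correlations are descriptions over samples that share subsets and arrays. Of 1515 other genes whose signal spanned at least 1 log2 unit, those most like Cd163 were A4galt, a sugar transferase of glycolipids (r = 0.997), Cfp, which encodes the complement protein properdin (0.995), and Adgrg1, an adhesion receptor (0.994). Cfp was at 8.44 and 8.96 in CX3CR1high, 9.59 and 9.88 in CX3CR1int, and 9.82 and 9.76 in CX3CR1low samples. As many as 74 of the 1515 genes reached an r of 0.9 with Cd163, and 88 did so with Folr2. The genes most like Folr2 were Wfdc17 (0.988), the apoptotic cell bridge Pros1 (0.985) and the semaphorin Sema4b (0.985). Those most like Lyve1 were the arginase gene Arg2 (0.978), the matrix protein gene Thbs1 (0.964) and Plbd1 (0.957), and here 10 genes reached 0.9. All 3 were at their lowest in the CX3CR1low replicate 1, where Lyve1 was lowest too, with Thbs1 at 8.63 there and at 9.58 to 10.74 elsewhere.

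Some other genes of Lyve1+ Folr2+ resident macrophages fell in CX3CR1high cells, and several hardly differed. Of 25 tested genes of that list 7 were called lower than in CX3CR1low cells and none higher, beside 0.399% of all genes called in either direction. The difference was negative in 22 of the 25, beside 48.6% of all genes. With the replicate block 9 were called, Ednrb and Mgl2 being added. The largest falls were those of the lectin genes Cd209d (-3.52 ± 0.29, SE, limma, adjusted p = 0.00512) and Cd209g (-3.34 ± 0.34), the complement gene C4b (-2.96 ± 0.29) and Retnla, a secreted protein of alternatively activated macrophages (-2.73 ± 0.27). Cd209g was at 4.66 and 5.02 in CX3CR1high samples, close to the dim level of 4.335, so that the size of its fall is uncertain. The other 3 were Cd209b (-1.98), the galactose lectin Clec10a (-1.74) and the lipid transfer protein gene Pltp (-0.84 ± 0.13, SE, limma, adjusted p = 0.0412). Pltp, at 10.21 in both CX3CR1high samples against 11.15 and 10.94 in CX3CR1low samples, thus fell by about as much as Cd163. Several markers of the same cells hardly differed, such as the mannose receptor gene Mrc1 (-0.10), the platelet factor gene Pf4 (-0.08), the phosphatidylserine receptor gene Timd4 (-0.07) and Dab2 (-0.01). The median of the list was -0.63. Cd209d, Cd209g, C4b and Retnla were also called lower than in CX3CR1int cells, beside 0.142% of all genes called. The replicate block added Clec10a there (limma, adjusted p = 0.0261). Those 4 calls fell to 0 without the filter on dim genes and to 1 without the intensity trend. They fell to 2 with arrays centred on their medians, a further quantile normalization or only the 2 subsets compared. The 7 calls against CX3CR1low cells fell to 5 without the filter or with only the 2 subsets compared. These 7 fell to 6 without the trend or with centred arrays, and rose to 8 with genes under the 50th percentile left out. None of the list was called between CX3CR1int and CX3CR1low cells. Earlier results of these data were known when the list was written, so that it is no independent evidence. Without the CX3CR1high replicate 1 none of the list was called in either comparison (medians -0.48 and -0.36). Against CX3CR1low cells 3 were called without the CX3CR1high replicate 2 or either CX3CR1low sample. Against CX3CR1int cells none was called without the CX3CR1high replicate 2 or either CX3CR1int sample, and 2 were called without the CX3CR1low replicate 1.

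**Figure D3:**
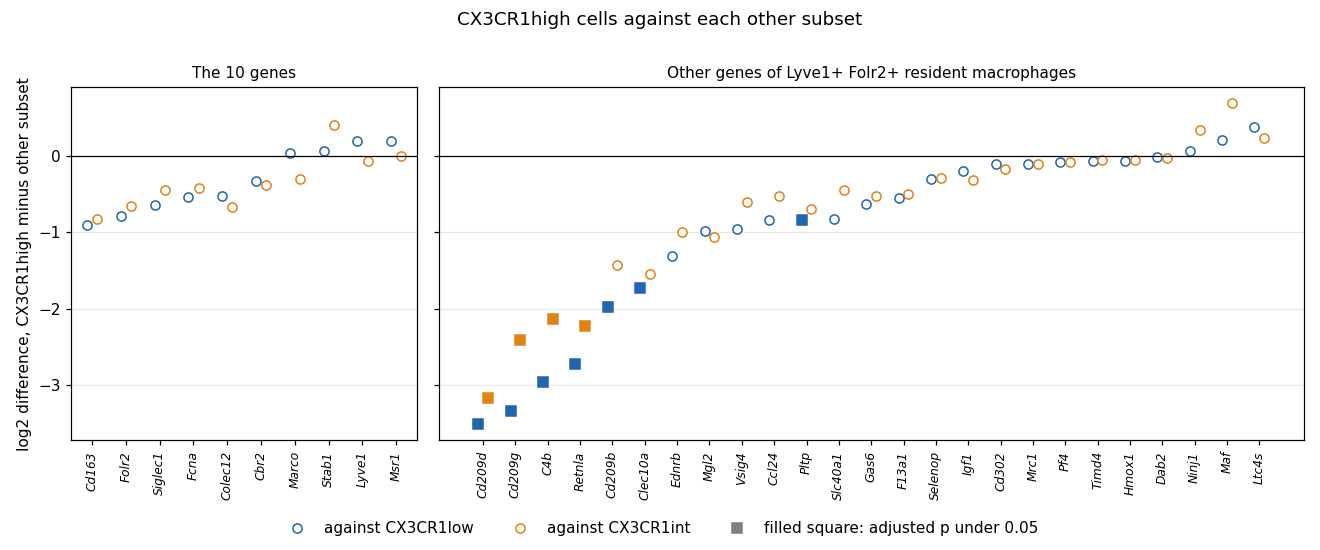
Log2 difference of CX3CR1high cells from CX3CR1low (blue) and CX3CR1int cells (orange) for the 10 genes (left) and for 25 other genes of Lyve1+ Folr2+ resident macrophages (right), each sorted by the blue values. Filled squares are genes called by limma at an adjusted p under 0.05, and open circles were not called. The 10 genes stay between -0.91 and 0.41, whereas Cd209d reaches -3.52.

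The partners of the 10 genes were measured by function. Of 19 other tested scavenger receptors none was called between any subsets. In CX3CR1high cells 10 were higher and 9 lower than in CX3CR1low cells, with a median of 0.05. Both CX3CR1high samples lay above both CX3CR1low samples in 8 of the 19, beside 19.8% of all genes. They lay below in 3, beside 18.4% of all genes. The largest difference was that of Clec7a (1.59 ± 0.57, SE, limma, adjusted p = 0.401). The scavenger receptor and chemokine gene Cxcl16 was at 11.04 and 10.44 in CX3CR1high, 10.22 and 9.82 in CX3CR1int, and 10.08 and 9.42 in CX3CR1low samples. It was 0.99 ± 0.27 higher in CX3CR1high than in CX3CR1low cells (SE, limma, adjusted p = 0.235), and it was called with the replicate block (limma, adjusted p = 0.0181). The lipid receptor gene Cd36 differed by 0.05 and the macrophage antigen gene Cd68 by -0.14.

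Of 10 tested genes of hyaluronan handling, the process of Lyve1, none was called. Tnfaip6, which links hyaluronan to proteins, was at 6.24 and 6.45 in CX3CR1high, 6.20 and 6.69 in CX3CR1int, and 7.34 and 7.87 in CX3CR1low samples. It was 1.26 ± 0.25 lower in CX3CR1high than in CX3CR1low cells (SE, limma, adjusted p = 0.0915) and called with the replicate block (limma, adjusted p = 0.0236). Of 10 genes of folate uptake and use none was called, and the median difference between CX3CR1high and CX3CR1low cells was 0.09. Shmt2, an enzyme of the folate cycle, had the lowest p, with 0.55 higher signal in CX3CR1high than in CX3CR1int cells (limma, adjusted p = 0.591). Of 13 genes of hemoglobin and heme handling, the process of Cd163, none was called either. Between CX3CR1high and CX3CR1low cells Hmox1, the heme oxygenase that breaks heme down, differed by -0.07 ± 0.09 (SE). In the same comparison Lrp1, a receptor for heme bound to hemopexin, differed by 0.58 ± 0.16 (SE, limma, adjusted p = 0.259).

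Among 7 tested relatives of Siglec1 none was called. Cd33, the gene of a related sialic acid receptor, was at 10.91 and 10.37 in CX3CR1high, against 10.09 and 10.21 in CX3CR1int and 10.59 and 10.07 in CX3CR1low samples. Only 3 genes of the lectin complement pathway, in which ficolin A acts, were bright enough to be tested, and C4b fell among them. Of 11 genes of the MHC class II and Ccr2 type, Cx3cr1, which defined the sort, was the only call, and with the replicate block Cd52 was also called higher in CX3CR1high than in CX3CR1low cells. All 11, Cx3cr1 among them, were higher in CX3CR1high than in CX3CR1low cells, with a median of 0.29, where 48.6% of all genes were lower. All 11 were also higher in CX3CR1int than in CX3CR1low cells, with a median of 0.21, where 47.9% of all genes were lower. Between CX3CR1high and CX3CR1int cells 8 were higher and 3 lower in CX3CR1high cells, with a median of 0.175.

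Transcripts of other skin cells also differed between the subsets, not all of them in the pattern of Cd163 and Folr2. The mean log2 signal of 8 mast cell markers was 4.35 and 4.29 in CX3CR1high, 5.10 and 5.11 in CX3CR1int, and 5.65 and 5.39 in CX3CR1low samples. That of 9 fibroblast markers was 6.41 and 6.38 in CX3CR1high, 6.54 and 6.66 in CX3CR1int, and 6.75 and 7.20 in CX3CR1low samples. That of 9 keratinocyte markers was 6.41 and 6.55 in CX3CR1high, 6.49 and 6.69 in CX3CR1int, and 6.89 and 7.27 in CX3CR1low samples. Between CX3CR1int and CX3CR1low samples these 3 lists did not overlap, while the keratinocyte means overlapped between CX3CR1high and CX3CR1int samples. Median differences between CX3CR1high and CX3CR1int cells were -0.768 for tested mast cell, -0.315 for fibroblast and -0.18 for keratinocyte markers. Between CX3CR1int and CX3CR1low cells they were -0.602, -0.68 and -0.465. Of the mast cell markers Cpa3, Mcpt4 (-2.26) and Cma1 (-1.87) were called lower in CX3CR1high than in CX3CR1low cells, and Fcer1a and Ms4a2 were dim. Cma1 was at 4.63 and 4.53 in CX3CR1high samples, close to the dim level of 4.335, so that the size of its fall is uncertain. Cpa3 was at 3.82 and 4.32 in CX3CR1high samples, both under the dim level, against 7.80 and 7.08 in CX3CR1low samples, so that its fall has no exact size. Cpa3 was also called lower than in CX3CR1int cells, as was Mcpt4 with the replicate block. Of the keratinocyte markers Krt10 (-1.46) was called lower in CX3CR1high than in CX3CR1low cells, and Krt17 too with the replicate block. No fibroblast marker was called, though 4 were with the replicate block, all lower in CX3CR1high than in CX3CR1low cells, and Col1a1 differed by -1.07. In that comparison 6 of the 8 tested fibroblast markers were lower and 2 higher. Pdgfra was among the higher ones, at 4.62 and 4.85 in CX3CR1high against 4.47 and 4.44 in CX3CR1low samples. The part of such cells in the signals of the 10 genes was not tested.

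Lymphatic endothelium, which shares Lyve1 and Stab1, had some markers near the dim level and others well above it. Its defining gene Prox1 was at 4.01 and 4.22 in CX3CR1high, 3.67 and 3.81 in CX3CR1int, and 4.26 and 4.62 in CX3CR1low samples, below the dim level in all save the CX3CR1low replicate 2. The lymphatic markers Pdpn and Nrp2 were bright, at 8.68 to 9.52 and 8.74 to 9.18 over the 6 samples. The mean of 7 lymphatic markers was 5.91 and 5.98 in CX3CR1high, 5.86 and 5.84 in CX3CR1int, and 5.84 and 6.08 in CX3CR1low samples, and none was called. Of 7 tested blood endothelial markers none was called, and Kdr, Tek and Emcn were dim. Cdh5, which encodes the junction protein of endothelium, differed by -1.27 ± 0.30 between CX3CR1high and CX3CR1low cells (SE, limma, adjusted p = 0.177). Of 6 monocyte markers Ly6c2 was called lower in CX3CR1high than in CX3CR1int cells (-3.49 ± 0.45, SE, limma, adjusted p = 0.0421). Its CX3CR1high signals were 3.36 and 4.92, with a mean under the dim level, and it was at 7.35 and 7.90 in CX3CR1int samples. With the replicate block Ly6c2 (limma, adjusted p = 0.00484) and Gda were called lower in CX3CR1high than in CX3CR1low cells. In that comparison 3 of the 6 monocyte markers were higher and 3 lower in CX3CR1high cells, with a median of -0.33. Ccr2 was among the higher ones, at 7.92 and 7.26 in CX3CR1high against 5.56 and 7.15 in CX3CR1low samples. Against CX3CR1int cells 2 were higher and 4 lower, with a median of -1.075. No gene was called in any comparison among the tested markers of Langerhans cells (4), dendritic cells (6), lymphocytes (4), neutrophils (5), and Schwann cells and melanocytes (5). The closest were Ccr7 of dendritic cells (1.32 ± 0.22 higher in CX3CR1high than in CX3CR1low cells, SE, limma, adjusted p = 0.0510) and Cd207 of Langerhans cells (1.22 ± 0.29, SE, limma, adjusted p = 0.181). In that comparison Cd207 was the only higher one of the 4 Langerhans markers, and the other 3 were lower (median -0.113). Of the 6 dendritic markers 4 were higher and 2 lower (median 0.087). With the replicate block Ccr7 was called (limma, adjusted p = 0.0239).

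**Figure D4:**
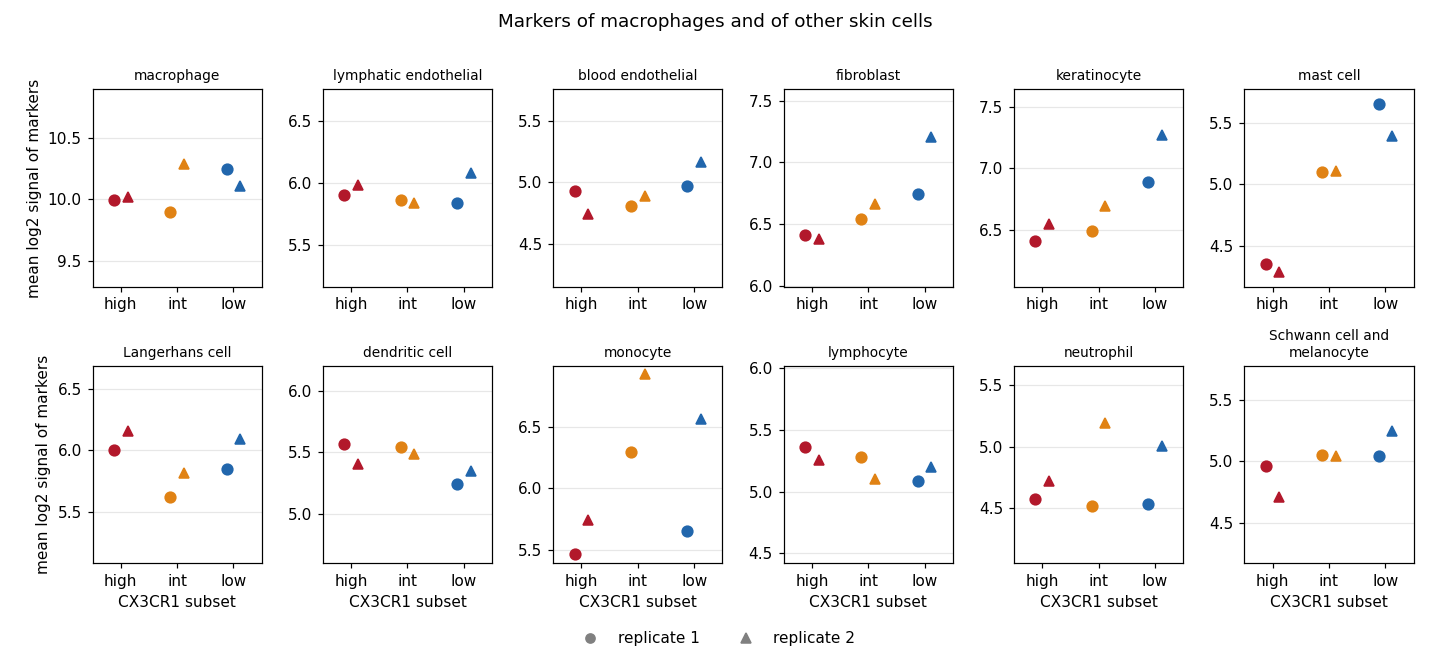
Mean log2 signal (vertical axes, each spanning the same range) of 12 marker lists in the CX3CR1high, CX3CR1int and CX3CR1low samples, with circles for replicates 1 and triangles for replicates 2. The means of mast cell, fibroblast and keratinocyte markers are highest in both CX3CR1low samples, while that of macrophage markers stays between 9.89 and 10.29.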

How the data were processed

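Per the submitters' processing notes, Affymetrix Expression Console 1.4 and RMA were used, and the deposited values are log2 signals of probe sets. Per the labels' protocols, the RNA was amplified before labelling, and no genome build is given in the sources used here. The values were used as deposited, with 2 decimals, and 0 columns were left unused. Of 34390 probe sets, 23521 had 1 symbol, 1814 several and 9055 none. Those with 1 symbol entered, with the brightest per gene, and genes under the 30th percentile of mean signal (4.335) were left out.

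Tests used limma 3.58.1 in R 4.3.3, with a mean per subset over all 6 samples, an intensity trend and Benjamini-Hochberg adjustment over 15529 genes. The variance rested on 3 residual and 5.77 prior degrees of freedom. The number of arrays limits the precision of every value.

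The p-values measure the spread between pooled samples of litters. The members, gene lists and tests were chosen with earlier results of these data known. The rule for names took the 10 genes, up to 4 called genes per list or else the one of lowest p, the nearest patterns of 3 genes, and Cx3cr1, Mrc1, Adgre1 and Csf1r. Further list members named in the text, such as Cd209b, Clec10a, Pltp, Pf4, Timd4, Dab2, Cd36, Cd68, Hmox1, Prox1, Ednrb, Mgl2, Cd52, Krt17 and Gda, were chosen after their values were seen. So were Clec7a, Pdpn, Nrp2, Ccr2 and Pdgfra.

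Same-numbered samples of different subsets deviated together across genes (0.136, 0.178 and 0.146 for the 3 pairs of subsets), and the labels report 2 litters without tying them to the numbers. Same-numbered samples were also alike in sex composition. Xist was at 7.39 to 7.97 in replicates 1 and 10.99 to 11.39 in replicates 2. The male transcript Eif2s3y was at 7.76 to 8.27 and 2.99 to 3.72. The main fit has no term for the replicate number and counts such differences as spread. The fit with the replicate number as a block, which has 2 residual degrees of freedom, is therefore given for the genes and lists described where it changes a call. The fit was tested on simulated data without an effect of the replicate number, with 8 false calls among 167 between CX3CR1high and CX3CR1low samples.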

Additional observations from a re-analysis of the deposited data

How the results depend on the processing

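The differences of the 10 genes were recomputed under 16 alternatives, which gave 480 values. Of these, 460 kept their direction and their side of the threshold, 1 was newly called (Cd163 between CX3CR1high and CX3CR1low cells with the replicate block, -0.905, which makes 1 of the 10 called), and 19 changed sign, all of them uncalled in every fit. The replicate block changed no other call of the 10. For Cd163 the difference between CX3CR1high and CX3CR1low cells ran from -1.15 to -0.66 and its adjusted p from 0.0305 to 0.350 (limma). Leaving out a sample in turn gave these ranges for the differences that changed sign. Between CX3CR1high and CX3CR1low cells they were -0.095 to 0.495 for Lyve1 (negative without CX3CR1low replicate 1), -0.455 to 0.525 for Marco (negative without CX3CR1high replicate 2 or CX3CR1low replicate 2, -0.07) and -0.085 to 0.225 for Stab1 (negative without CX3CR1high replicate 2). Between CX3CR1high and CX3CR1int cells they were -0.185 to 0.055 for Lyve1, -0.79 to 0.19 for Marco, -0.145 to 0.135 for Msr1 and -1.035 to 0.135 for Siglec1, positive without CX3CR1high replicate 1 (Lyve1, Marco, Msr1) or CX3CR1int replicate 2 (Lyve1, Msr1, Siglec1). Between CX3CR1int and CX3CR1low cells they were -0.015 to 0.125 for Cbr2, -0.12 to 0.40 for Colec12, -0.365 to 0.135 for Fcna, -0.36 to 0.09 for Folr2, -0.03 to 0.56 for Lyve1 and -0.775 to 0.395 for Siglec1. Centring the arrays on their medians turned Marco to -0.015 between CX3CR1high and CX3CR1low cells.

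Counts over all genes moved more, and the cause was not tested. Between CX3CR1high and CX3CR1low cells 62 genes were called, against 154 with the replicate block, 26 without the filter on dim genes, 18 with every probe set on its own, 40 with centred arrays, 39 with only the 2 subsets compared, and 0 to 39 when a sample was left out. Between CX3CR1high and CX3CR1int cells 22 were called, against 47 with the replicate block, 14 with centred arrays or only 2 subsets, 8 with a further quantile normalization, 4 without the intensity trend, 0 without the filter or with every probe set, and 0 to 20 when a sample was left out. The 1 gene between CX3CR1int and CX3CR1low cells was lost (0) without the filter or the trend, with every probe set, a further quantile normalization, only 2 subsets, the replicate block, and each sample left out. For any difference among the subsets 29 were called, against 79 with the replicate block, 14 without the filter, 0 with every probe set, and 0 to 17 when a sample was left out.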
